A study of Homo sapiens with 4 samples.

Results

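A set of 40 protein-coding genes was described in MCF10A cells, an established human line of breast epithelium that grows without being cancerous. They are genes whose mRNA was at least 2 times higher after TGF-β1 than before it in each of 2 replicate pairs, and which lie outside the better known families of TGF-β response genes. The control group was 2 libraries taken at 0 h, and the treated group was 2 libraries taken after 1.5 h with TGF-β1 at 5 ng/ml. None of the libraries was taken at 1.5 h without TGF-β1. An effect of TGF-β1 and one of 1.5 h of further culture and handling therefore cannot be told apart. All 4 libraries came from cells with a stably expressed scramble shRNA, and all were grown with EGF, cholera toxin, insulin, hydrocortisone and horse serum. The set was chosen on these same 4 libraries. TPM values (a level corrected for transcript length and library size) were summed per gene, and a gene needed a mean of at least 0.5 TPM and a ratio (TGF-β1 + 0.1)/(control + 0.1) of at least 2 within replicates 1 and within replicates 2. Of 12667 protein-coding genes at that mean level, 86 (0.679%) passed both ratios. Of these, 46 were left out by the start of their symbol, such as SMAD, SNAI, JUN, KLF, GADD45 or WNT, and 40 remained. Because treated against control levels chose the genes, that contrast is given below as a description, and calls made on it support nothing about the set.

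TGF-β1 is a secreted cytokine that binds a pair of receptor kinases on the cell surface. The receptors phosphorylate SMAD2 and SMAD3, which join SMAD4, enter the nucleus and act on promoters and enhancers together with other factors, among them AP-1. Within the first hours the pathway induces its own inhibitors and transcription factors, along with secreted proteins and regulators of other signalling pathways. In mammary epithelium it slows proliferation, and longer exposure can loosen cell contacts.

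The libraries held 35737659 to 40792300 estimated counts each. Of the 13 markers of basal mammary epithelium, all were at 1 TPM or more in every library, and of the 5 endothelial markers none was. Of 8 luminal markers 4 were, and of 6 blood markers 3 were, with CD3E under 0.1 TPM in every library. The 6 blood markers summed to 46.2 and 53.1 TPM in controls and to 40.3 and 50.6 TPM with TGF-β1. The labels call the libraries biological duplicates and do not say whether equal numbers share a culture or a day, so p-values measure only the spread between these samples, which may be technical. In both groups the libraries numbered 2 differed from those numbered 1 in many genes: edgeR's quasi-likelihood test called 44.9% of 14774 tested genes between the numbers, with treatment in the model. Values are given in the order control replicate 1, control replicate 2, TGF-β1 replicate 1 and TGF-β1 replicate 2, or as mean ± SD with n = 2 libraries per group.

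Both treated libraries lay above both controls in all 40 genes, which was so of 6.57% of the 12667 genes. Of the 40, 37 had enough counts to be tested. For treated against control, with no term for the replicate number, edgeR called 0 of the 37 at an adjusted p under 0.05, and 0% of all tested genes. At an unadjusted p under 0.05 it had 28 of the 37, among 255 of all 14774 tested genes, of which 198 were higher. With the replicate number as a block edgeR called more genes, as given in the last section. DESeq2's Wald test called 24 of the 37 higher, against 0.555% of all tested genes. Since the contrast chose the genes, these counts describe the set and support nothing about it. The median log2 fold change of the 37 was 1.57, and that of all tested genes was -0.01. In bulk RNA, more cells that express a gene and more RNA per cell cannot be told apart.

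**Figure D1:**
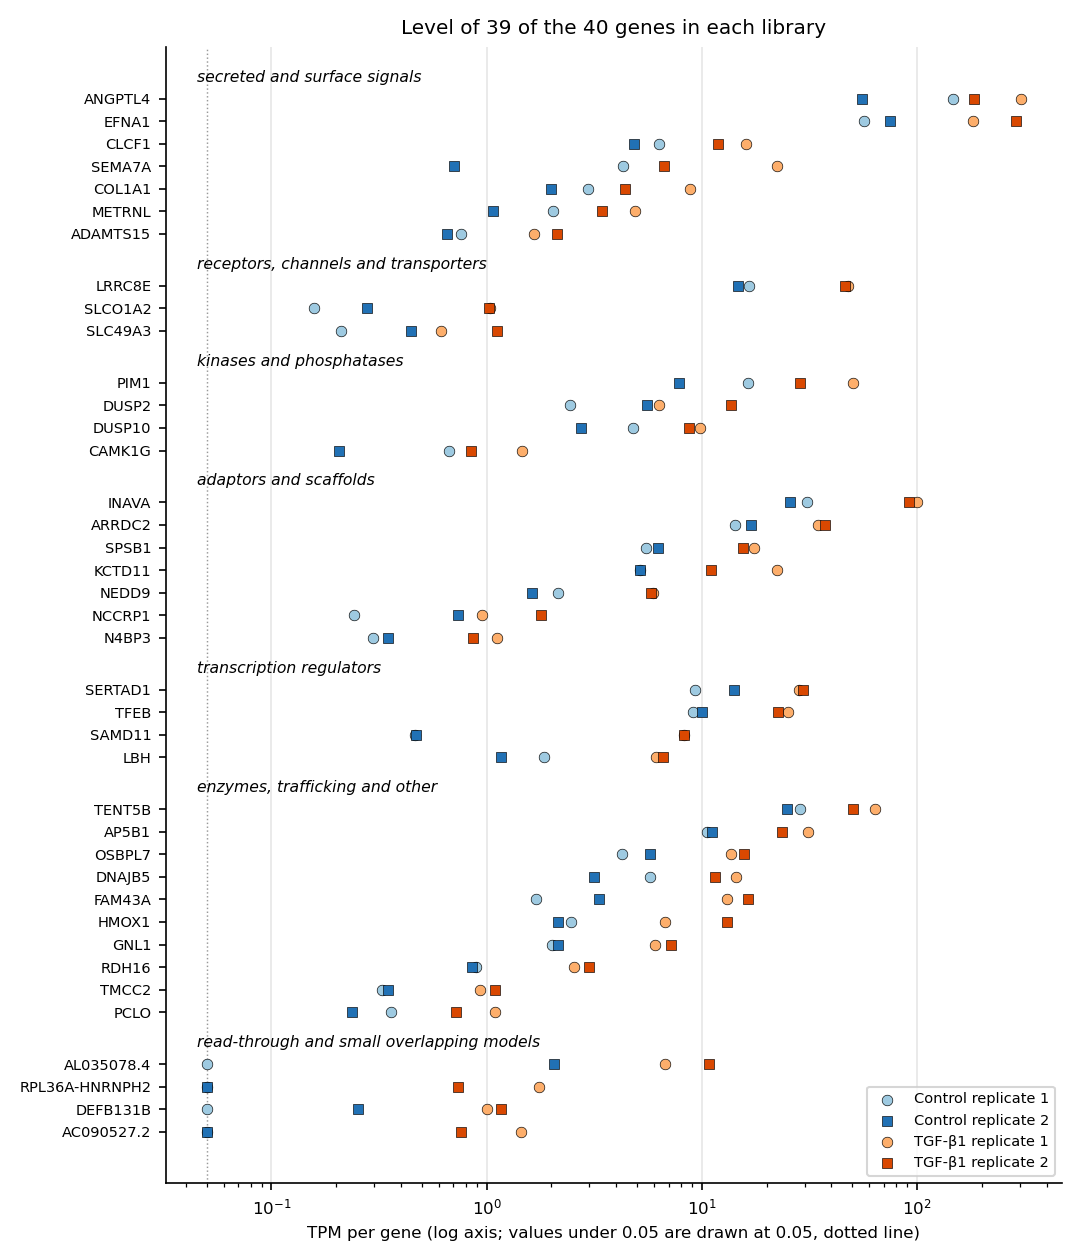
TPM of 39 of the 40 genes in each of the 4 libraries on a log axis, grouped by the role of the protein. Circles are replicates 1 and squares replicates 2, and in every gene shown both orange symbols (TGF-β1) lie to the right of both blue symbols (control).

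The set was mostly of genes at low level. The mean over the 4 libraries ran from 0.553 TPM in AC090527.2 to 173 TPM in ANGPTL4. It was under 1 TPM in 10 genes, from 1 to 10 TPM in 18 and at 10 TPM or more in 12. The median control level was 2.39 TPM, where that of the 12667 genes was 16.8 TPM. For the 46 genes left out by symbol it was 4.55 TPM. The control level is part of the ratio that chose these genes, so a low value is partly built in. The genes just inside the ratio threshold were CAMK1G, TENT5B and ADAMTS15, whose smaller ratios were 2.02, 2.03 and 2.03. Just outside it were TMEM220 at 1.99, KDM6B at 1.95 and KRT80 at 1.94. At the threshold of the mean, AC090527.2 (0.553 TPM), SLC49A3 (0.598 TPM) and PCLO (0.601 TPM) were just inside, and TREH (0.470 TPM), RGPD2 (0.462 TPM) and AC011462.1 (0.447 TPM) just outside.

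**Figure D2:**
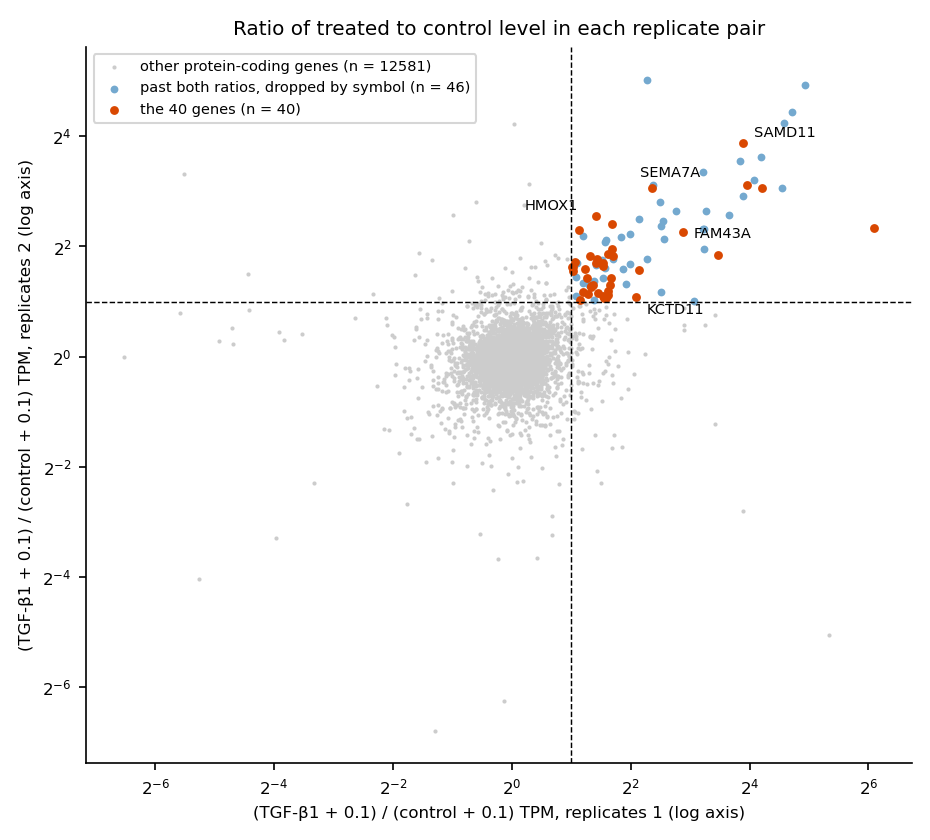
Ratio of treated to control TPM in replicates 1 (x axis) and replicates 2 (y axis), both log axes, for 12667 protein-coding genes. Dashed lines mark a ratio of 2; the upper right field holds the 40 genes and the 46 left out by symbol, and SAMD11 lies farthest along the diagonal among the labelled genes, at 14.9 and 14.7.

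RefSeq promoters on GRCh38.p14, from 250 bases before to 50 after the start site, were found for 31 of the 40 genes. The AP-1 motif TGANTCA stood in 6 of the 31 (19.4%), with both strands searched. It stood in 4.79% of 9956 promoters of genes at 0.5 TPM or more, and in 7.76% of all 27305 promoters. Among the genes left out by symbol it stood in 2 of 31 promoters (6.45%), so the higher share was not seen there. It began 121 bases before the RefSeq start site in ARRDC2, 179 in KCTD11, 6 in LRRC8E, 13 in N4BP3 and 133 in TENT5B. In AP5B1 it began at base 41 past that site. The GENCODE models used for the levels can start elsewhere. That of AP5B1 starts at chr11:65780802 on the minus strand, so the motif lies before it. Those of KCTD11 and N4BP3 start at chr17:7351889 and chr5:178113443, so there the motif lies inside the model. That of LRRC8E starts at chr19:7888505, within the motif. The windows around it before or at the start site are shown by a choice made after the shares were seen. Of the 8 motifs searched, its share of promoters with a match differed by the most percentage points from the genes at 0.5 TPM or more. Capitals mark TGANTCA and, where present, CAGAC or its complement GTCTG.
ARRDC2 chr19:18000976-18001036 (+): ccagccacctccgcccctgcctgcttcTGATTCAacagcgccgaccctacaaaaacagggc
KCTD11 chr17:7351956-7352016 (+): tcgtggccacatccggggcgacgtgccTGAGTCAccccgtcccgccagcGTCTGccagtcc
LRRC8E chr19:7888477-7888529 (+): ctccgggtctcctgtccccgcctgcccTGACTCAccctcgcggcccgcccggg
N4BP3 chr5:178113492-178113551 (+): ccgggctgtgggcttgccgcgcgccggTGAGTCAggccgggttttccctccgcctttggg
TENT5B chr1:27012950-27013010 (-): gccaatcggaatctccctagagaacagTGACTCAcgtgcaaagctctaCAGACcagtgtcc

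In KCTD11 and TENT5B an AP-1 match and a CAGAC match, the short element that SMAD3 and SMAD4 bind, began within 30 bases of each other. This was so in 2 of 31 promoters of the set (6.45%), in 0.552% of those of genes at 0.5 TPM or more, and in 0.971% of all promoters. CAGAC alone was no more common than elsewhere: it stood in 13 of 31 promoters (41.9%) and in 45.0% of all. The palindrome GTCTAGAC and the cAMP response element TGACGTCA were in none of the 31, and were in 0.201% and 1.98% of all promoters. The E-box CACGTG and the TATA box TATAAA stood in 3 promoters each (9.68%). Their shares were 10.0% and 5.49% among genes at 0.5 TPM or more, and 7.43% and 11.95% among all promoters. The GC box GGGCGG stood in 74.2% of the set, 70.1% of the promoters of genes at 0.5 TPM or more and 44.6% of all. At least 3 matches of the GC box stood in 51.6%, 28.4% and 15.9%. GGCGCC, a GC-rich element that SMADs can bind and that can share bases with the GC box, stood in 32.3%, 30.6% and 19.0%. The promoters of the set had a median GC content of 67.3%, and all promoters 58.3%. That median was not taken for genes at 0.5 TPM or more. These matches describe letters in a window, and whether any factor binds there was not measured.

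**Figure D3:**
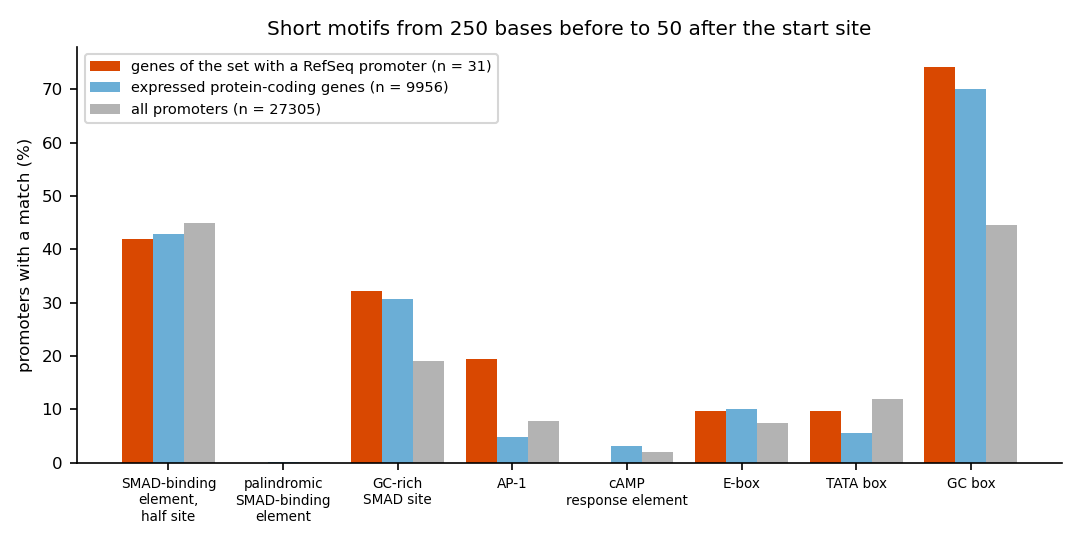
Share of RefSeq promoters with each short motif, in percent, for 31 genes of the set, 9956 genes at 0.5 TPM or more and all 27305 promoters. AP-1 letters stood in 19.4% of the set and 7.76% of all promoters, while the CAGAC bars are of like height (41.9% and 45.0%).

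Of the 7 secreted and surface signals, EFNA1 and ANGPTL4 were the most abundant genes of the whole set. EFNA1, an ephrin tethered to the membrane that activates EphA receptors on neighbouring cells, was at 56.5, 74.7, 183 and 288 TPM. Its mean was 65.6 ± 12.9 TPM in controls and 235 ± 74.9 TPM with TGF-β1, and the groups did not overlap. ANGPTL4, a secreted inhibitor of lipoprotein lipase and a known TGF-β target, was at 147, 55.5, 305 and 184 TPM. Its treated libraries both lay above the higher control, but the controls differed so much that TGF-β1 replicate 2 exceeded control replicate 1 by far less than it exceeded its own control.

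SEMA7A, a semaphorin anchored in the membrane that signals through integrin and plexin receptors, was at 4.28, 0.707, 22.4 and 6.66 TPM. Its ratios of 5.14 and 8.38 were among the largest of the set, yet the libraries numbered 2 were several times lower than those numbered 1 in both groups. CLCF1, a cytokine of the interleukin-6 family, was at 6.35, 4.83, 16.1 and 11.8 TPM. METRNL, a secreted protein related to meteorin, was at 2.03, 1.07, 4.90 and 3.43 TPM. All 3 were lower in replicates 2 than in replicates 1 on both sides of the comparison.

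COL1A1, the alpha-1 chain of type I collagen, was at 2.96, 1.99, 8.76 and 4.40 TPM. Its counts scaled to library size (CPM) gave a ratio of 2.21 in replicates 1 and 1.85 in replicates 2, so the second pair missed 2 on that scale. Summed over its protein_coding transcripts alone, the TPM ratios were 2.36 and 1.58. COL1A1 is also one of 7 fibroblast markers, of which 2 were at 1 TPM or more in every library and COL3A1 and LUM were under 0.1 TPM in every library. The 7 summed to 21.4 and 19.8 TPM in controls and to 28.5 and 26.2 TPM with TGF-β1. Without COL1A1 the sums were 18.5, 17.8, 19.7 and 21.8 TPM, and their part in the result was not tested. ADAMTS15, a secreted metalloprotease with thrombospondin motifs, was at 0.762, 0.654, 1.65 and 2.12 TPM.

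Among receptors, channels and transporters, LRRC8E was at the highest level and had a small spread. This subunit of volume-regulated anion channels, whose promoter window is shown above, was at 16.5, 14.7, 48.0 and 46.2 TPM. The means were 15.6 ± 1.24 and 47.1 ± 1.24 TPM, so the replicates of a group lay close together.

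The transporters SLCO1A2 and SLC49A3 rested on very few reads. SLCO1A2, an organic anion transporter, had 5.16, 9.68, 9.30 and 10.0 estimated counts, although its TPM was 0.158, 0.278, 1.03 and 1.03. Its treated counts were assigned in part to transcripts of 356 and 559 bases that held none in the controls, and TPM divides counts by length. SLC49A3, a solute carrier, had 5.17, 8.15, 10.1 and 10.0 counts. On the CPM scale neither gene reached a ratio of 2 in either pair.

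The 4 kinases and phosphatases comprised PIM1, a serine/threonine kinase that promotes survival, CAMK1G, a kinase activated by calmodulin, and the MAP kinase phosphatases DUSP2 and DUSP10. PIM1 was at 16.4, 7.82, 50.4 and 28.6 TPM. The replicates numbered 2 were lower in both groups, and the lower treated library stayed above the higher control. DUSP2, which acts in the nucleus, was at 2.43, 5.58, 6.30 and 13.6 TPM. Here the replicates numbered 2 were the higher ones, and control replicate 2 came close to TGF-β1 replicate 1.

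DUSP10, which acts mainly on the stress kinases p38 and JNK, was at 4.76, 2.75, 9.85 and 8.72 TPM. In CPM its ratios were 1.94 and 3.03, and over protein_coding transcripts the TPM ratios were 1.87 and 2.76, so the first pair missed 2 on both scales. CAMK1G was at 0.671, 0.206, 1.46 and 0.843 TPM, from 25 and 13 counts in controls and 68 and 52 with TGF-β1. Between replicate numbers the phosphatases moved apart, with a log2 fold change of 1.19 in DUSP2 and -0.41 in DUSP10, which for DUSP10 did not pass the test (adjusted p = 0.0714, edgeR).

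The 7 adaptors and scaffolds included 2 that serve ubiquitin ligases. SPSB1, a substrate adaptor known to lead the type II TGF-β receptor to degradation, was at 5.49, 6.24, 17.6 and 15.6 TPM. The gene lies at chr1:9292880-9369532 (GRCh38), and its 3120-base protein_coding transcript held 86.8% to 89.8% of its counts in each library. KCTD11, an adaptor of cullin-3 that dampens Hedgehog signalling, was at 5.15, 5.15, 22.2 and 11.0 TPM. Its controls were nearly equal and its treated libraries were far apart, which gave ratios of 4.25 and 2.11.

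INAVA, which stabilises contacts between epithelial cells, was at 30.8, 25.6, 99.8 and 91.3 TPM, and its ratios of 3.24 and 3.56 were close to each other. NEDD9, a scaffold of focal adhesions and a known TGF-β target, was at 2.14, 1.62, 5.93 and 5.83 TPM. Its 4536-base transcript NEDD9-202 held 87.3% and 76.9% of the counts in controls and 94.2% and 92.5% with TGF-β1. The shorter NEDD9-201 stayed between 26.4 and 41.2 counts in all 4 libraries, so the difference lay almost wholly in NEDD9-202.

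ARRDC2, an alpha-arrestin, was at 14.2, 16.9, 34.8 and 37.3 TPM. Its groups lay far apart relative to their spread, at 15.5 ± 1.90 and 36.1 ± 1.74 TPM. N4BP3, a binding partner of NEDD4 ligases, was at 0.298, 0.347, 1.12 and 0.866 TPM. NCCRP1, a protein with an F-box associated domain, was at 0.241, 0.734, 0.947 and 1.79 TPM. In NCCRP1 the control with the higher level lay nearer to TGF-β1 replicate 1 than to the other control.

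In each of the 4 transcription regulators the treated replicates lay close together. SAMD11, a nuclear protein with a sterile alpha motif, was at 0.463, 0.469, 8.27 and 8.28 TPM. The difference rested on 24.3 and 18.1 counts in controls and 274 and 232 with TGF-β1, and edgeR's log2 fold change was 3.64 ± 0.29 (SE). Several transcripts shared the treated counts: SAMD11-205 held 116 and 80.4 counts and SAMD11-216 held 63.4 and 80.2. SAMD11 overlaps NOC2L on the opposite strand, and NOC2L was at 121, 118, 156 and 126 TPM. The 250 bases before the RefSeq start site of SAMD11 are shown because they held 3 matches of GGCGCC, in capitals, as did the promoter of PCLO. The GENCODE model of SAMD11 starts at chr1:923928, so the stretch shown lies inside that model. At least 3 matches stood in 2 of 31 promoters of the set (6.45%), in 1.40% of those of genes at 0.5 TPM or more, in 3.23% of those of genes left out by symbol, and in 0.872% of all promoters.
SAMD11 chr1:925481-925730 (+): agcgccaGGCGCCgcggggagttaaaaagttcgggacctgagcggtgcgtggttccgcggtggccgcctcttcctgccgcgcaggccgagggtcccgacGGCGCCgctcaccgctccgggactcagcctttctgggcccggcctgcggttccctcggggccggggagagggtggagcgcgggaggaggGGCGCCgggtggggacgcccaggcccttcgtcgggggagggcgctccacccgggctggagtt

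LBH, a cofactor linked to the basal lineage of the mammary gland, was at 1.84, 1.17, 6.13 and 6.61 TPM. SERTAD1, which binds CDK4 and acts with E2F factors, was at 9.29, 14.1, 28.2 and 29.6 TPM. Its relative SERTAD3, 14.8 kb away on chromosome 19, was at 15.7, 18.9, 25.5 and 27.1 TPM and did not reach the ratio of 2. TFEB, the master regulator of lysosomal genes, was at 9.09, 10.0, 25.1 and 22.5 TPM. In CPM its ratios were 2.73 and 1.86, and its estimated transcripts differed between replicate numbers: TFEB-206 held 161 and 210 counts in the replicates numbered 1 and fewer than 1 in those numbered 2.

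The largest role group held 10 genes for enzymes, trafficking and other functions. HMOX1, the inducible haem oxygenase, was at 2.47, 2.15, 6.74 and 13.1 TPM. The treated libraries lay further from each other than the lower of them lay from the controls, and the ratios were 2.66 and 5.84. FAM43A, an intronless gene whose product is little described, was at 1.69, 3.35, 13.0 and 16.4 TPM. TENT5B, a poly(A) polymerase, was at 28.7, 24.7, 63.6 and 50.3 TPM. Its second ratio was 2.03, close to the limit of 2.

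AP5B1, a subunit of the AP-5 complex of late endosomes, was at 10.6, 11.1, 31.3 and 23.5 TPM. It was the only gene of the set with another gene past both ratios within 100 kb: OVOL1, 6.22 kb away, was at 1.13, 1.25, 17.5 and 15.6 TPM. DNAJB5, a co-chaperone of heat shock proteins, was at 5.77, 3.16, 14.5 and 11.5 TPM. TMCC2, a membrane protein with coiled coils, was at 0.328, 0.347, 0.927 and 1.10 TPM. Of TMCC2's counts, 96.1% and 86.5% lay in protein_coding transcripts in controls, and 70.7% and 50.7% with TGF-β1. Over those transcripts alone its TPM ratios were 1.92 and 1.99.

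In OSBPL7, GNL1 and RDH16 most of the added counts fell on other transcripts than the one that led in the controls, as also in SAMD11 and TMCC2. OSBPL7, an oxysterol-binding protein, was at 4.24, 5.73, 13.7 and 15.7 TPM. Its 3640-base coding transcript OSBPL7-201 held 222, 222, 214 and 215 counts, nearly the same in all 4 libraries. The retained-intron transcript OSBPL7-208 held 48.8, 50.3, 231 and 227 counts, and the shorter retained-intron models OSBPL7-206 and OSBPL7-209 moved with it. The TPM ratio over protein_coding transcripts of OSBPL7 was 1.19 and 0.87.

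GNL1, a GTP-binding protein, was at 2.01, 2.15, 6.04 and 7.19 TPM. Its retained-intron transcript GNL1-203 held 31.0, 32.8, 28.9 and 22.1 counts, while GNL1-202, a coding transcript, held fewer than 1 in each control and 116 and 140 with TGF-β1. GNL1 lies in the major histocompatibility region of chromosome 6, where transcript sets can carry further copies of a gene, and copies that were not matched to GENCODE were not analysed here. RDH16, a retinol dehydrogenase, was at 0.894, 0.854, 2.54 and 2.99 TPM. Its coding transcript RDH16-202 held 21.4, 7.74, 107 and 105 counts, and its processed transcript RDH16-201 held 51.1, 61.4, 78.6 and 107.

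PCLO, a scaffold of the presynaptic zone, passed the rule with few added reads or none. It had 129, 88, 98 and 103 counts, and its CPM ratios were 0.779 and 1.23. Its TPM was 0.360, 0.236, 1.09 and 0.722. A 428-base transcript that held no counts in the controls held 5.68 and 1.87 treated counts, or 0.756 and 0.277 TPM. In replicates 2 the coding transcript PCLO-206 also went from 0.000976 to 0.173 TPM, and over protein_coding transcripts alone the TPM ratios of PCLO were 0.697 and 1.62. TPM divides by length, so a count on a short transcript weighs more than one on the 17147-base PCLO-203.

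**Figure D4:**
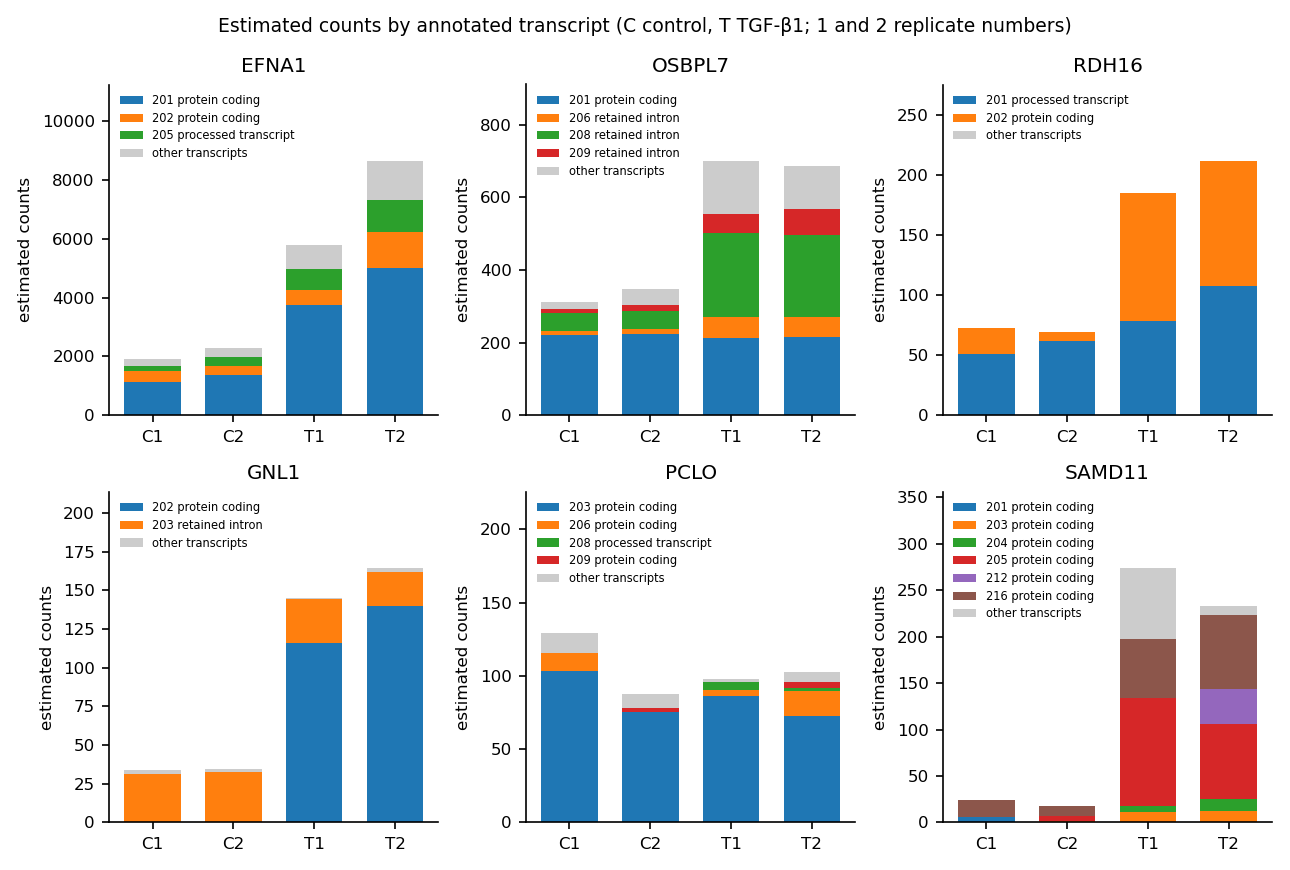
Estimated counts in each library, stacked by annotated transcript, for EFNA1, OSBPL7, RDH16, GNL1, PCLO and SAMD11. In OSBPL7 the lowest block (the coding transcript) is level in all 4 bars at 214 to 222 counts, and in PCLO the treated bars are no taller than control replicate 1.

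The last 4 members were small or overlapping gene models. AL035078.4 (chromosome 11), a model that overlaps RCN1, held no whole count in control replicate 1, 58.1 in control replicate 2, and 200.2 and 298 with TGF-β1. RCN1 itself was at 106, 97.3, 103 and 91.8 TPM. AC090527.2 overlaps BLOC1S6 and SQOR and held no count in controls and 37.4 and 18.4 with TGF-β1. RPL36A-HNRNPH2 likewise held none in controls and 20.3 and 7.66 with TGF-β1, beside RPL36A at 1872, 2184, 1844 and 2256 TPM. DEFB131B, a beta-defensin gene, held 0, 0.5, 2 and 2 counts. Reads that fit both such a model and the gene it overlaps are divided by the estimation, so these levels are uncertain and no fold is given for them.

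As to what the rule did not use, 15 of the 37 tested genes (40.5%) differed between replicate numbers in edgeR's test with treatment in the model, near the 44.9% of all tested genes. Of these, 6 were higher and 9 lower in the libraries numbered 2. SEMA7A was lower by the most, with a log2 fold change of -1.94 ± 0.21 (SE, adjusted p = 0.000504, edgeR), and ANGPTL4 had -1.01 ± 0.15 (adjusted p = 0.00206, edgeR). PIM1 fell by 0.84 ± 0.10 on the log2 scale from number 1 to number 2 (adjusted p = 0.000657, edgeR). In the other direction, DUSP2 differed by 1.19 ± 0.12 (adjusted p = 0.000377, edgeR) and EFNA1 by 0.58 ± 0.09 (adjusted p = 0.00206, edgeR). Each of these 5 had the same direction in controls and in treated libraries. SAMD11, SPSB1 and LRRC8E did not pass this test, with log2 fold changes of -0.12 ± 0.19, 0.00 ± 0.09 and 0.02 ± 0.08. DESeq2 called 8 of the 37 (21.6%) between the numbers, near the 24.2% of all tested genes.

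**Figure D5:**
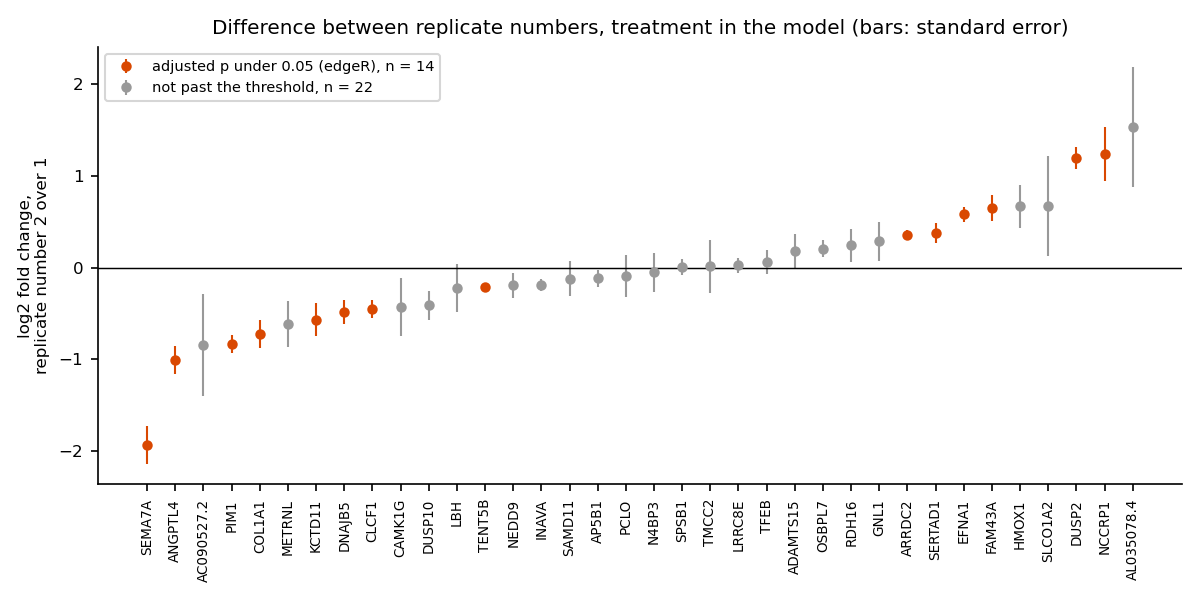
Difference between replicate numbers 2 and 1 (log2 fold change, edgeR with treatment in the model, bars are standard errors) for 36 of the 37 tested genes. The 14 of them past the threshold are coloured, from SEMA7A at -1.94 to NCCRP1 at 1.24, and genes near 0 include SPSB1 and LRRC8E.

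The genes were also compact. Their median span was 14.9 kb, against 33.3 kb for the 12667 genes, and the transcript with most exons had a median of 5 exons against 9. A span under 10 kb was found in 32.5% of the set and in 18.6% of the 12667 genes, and at most 2 exons in 15% and 4.78%. The 46 genes left out by symbol had a median span of 7.15 kb, with 54.3% under 10 kb and 17.4% with at most 2 exons. FAM43A and KCTD11 have a single exon, while COL1A1 has up to 51. The genes lay on 16 chromosomes, with 8 on chromosome 1 and 5 each on 11 and 19. A neighbour past both ratios within 100 kb was present for 2.5% of the set and 1.98% of the 12667 genes, and the 147 neighbouring genes at 0.5 TPM or more had median ratios of 1.03 and 0.986. Of counts, a median of 99.8%, 99.6%, 98.9% and 99.1% in the 4 libraries lay in protein_coding transcripts for the 37 tested genes, and 97.1%, 96.6%, 97.0% and 96.8% for all tested protein-coding genes.

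Lists of related genes gave the wider picture, with "rose" and "fell" used for genes past an adjusted p of 0.05 in DESeq2's Wald test; edgeR called 0 genes in each list, and at an unadjusted p under 0.05 it had 2 to 11 higher and 1 to 5 lower. Of all tested genes 0.555% rose and 0.0474% fell by the same DESeq2 rule. Among 36 tested early TGF-β targets outside the families left out by symbol, 1 rose, the member NEDD9, and 1 fell. The member ANGPTL4 was on the same list and did not pass (adjusted p = 0.650, DESeq2). The one that fell was CITED2, a CBP/p300-binding coregulator, at 8.36, 13.9, 3.24 and 5.10 TPM (adjusted p = 0.0435, DESeq2). Of 55 tested transcriptional regulators, 2 rose, the member LBH and RARA, and CITED2 again fell. RARA, the alpha receptor for retinoic acid, was at 4.99, 6.63, 14.8 and 10.7 TPM (adjusted p = 0.000840, DESeq2) and failed the rule in the second pair.

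Of 33 tested brakes on other signalling pathways, 1 rose and 1 fell. SPSB1 was the one that rose, and DUSP6, a phosphatase of ERK, fell from 75.5 and 47.5 TPM to 30.1 and 25.5 TPM (adjusted p = 0.0379, DESeq2). The members DUSP2 and DUSP10 were on the same list and did not pass. EFNA1 alone rose among 37 tested receptors, channels, transporters and their ligands, where the member SEMA7A did not pass. The median log2 fold changes of the 4 lists ran from -0.02 to 0.10, beside -0.01 for all tested genes. Members on these lists were chosen on this contrast, so their calls are no separate evidence.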

How the data were processed

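Total RNA of MCF10A cells was sequenced as 50-base read pairs, and the labels name both ribosomal RNA depletion and polyA RNA. Reads were quantified by the authors with kallisto and GRCh38 transcripts (the submitters' processing notes name both, without a version). Per the file headers, each deposited table lists estimated counts and TPM per transcript with transcript lengths in bases. Of 173259 transcripts, 159239 (91.9%) matched GENCODE 29 by identifier. The rest held 2.24% to 2.38% of the counts of a library and were left out. TPM and estimated counts were summed per gene, and counts were rounded. edgeR 4.0.16 (TMM scaling, filterByExpr, quasi-likelihood test) and DESeq2 1.42.0 in R 4.3.3 were run over 14774 genes with Benjamini-Hochberg adjustment and a threshold of 0.05. The edgeR fit was also run on simulated counts. These held no difference between replicate numbers, unlike the data, so that run cannot tell how the fit behaves with one. Standard errors of edgeR are the log2 fold change over the square root of F. Alternatives were RLE scaling, other filters, a length offset, the replicate number as a block, limma 3.58.1 on log2(TPM + 1), each library left out, and other settings of the rule. The members, the lists and the promoter motifs were chosen with earlier results of these data known. All members were open to naming, with values per library for those with the largest fold change, the highest level, a place on a list or a value next to a threshold. Genes on the lists were named where called. The values of 1 member and of 1 list are not reported here. Promoters are the first RefSeq entry of a symbol. Library size limits low genes: 5 members had fewer than 20 counts in a treated library.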

Additional observations from a re-analysis of the deposited data

How the results depend on the processing

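For treated against control, edgeR called 0 of 14774 genes and 0 of the 37 tested members, also with RLE scaling, with at least 50 counts in 2 libraries and with limma. It called 15 genes and 1 member with no filter, 3 genes with transcript lengths as an offset, and 335 genes and 33 members with the replicate number as a block. Deviations of same-numbered libraries from their group means correlated at 0.795, but the labels do not say what a number marks, so the replicate block was not the main fit. DESeq2 called 89 genes and 24 members, or 247 genes and 28 members with the replicate block. With each library left out, edgeR called 0 to 20 genes and 0 to 1 member, and DESeq2 called 63, 61, 43 and 71 genes and 18, 13, 8 and 11 members without control replicate 1, control replicate 2, TGF-β1 replicate 1 and TGF-β1 replicate 2. These DESeq2 fits and the one with the block were chosen after seeing the data. Which members DESeq2 called depended on the library left out, and each fit with a library left out had a single library in 1 group. The members' median log2 fold change of 1.57 was 1.24 with limma on log2(TPM + 1) and 1.51 to 1.68 with a library left out. Between replicate numbers, the 6635 genes and 15 members called became 3571 and 8 with DESeq2, 4101 genes with limma, and 3018 to 4020 genes and 0 to 1 member with a library left out and no treatment term. The rule found 22 members in place of 40 with a pseudocount of 1 TPM, 20 with a mean of at least 5 TPM, 24 with each treated library against each control and 11 with a ratio of at least 3. Matching control and treated libraries the other way gave 30, of which 24 were among the 40. The log2 fold change of PCLO, -0.04, was 1.62 with the length offset, 0.55 with limma and -0.23 to 0.19 with a library left out; DESeq2 gave 0.20 leaving out control replicate 1 and 0.081 leaving out TGF-β1 replicate 1. For SLCO1A2 it was 0.38, ran from -0.074 to 1.03 with a library left out, and was -0.067 in DESeq2 leaving out control replicate 1. The cause was not tested. Low counts limit the genes under 1 TPM.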
